A study of Mus musculus with 8 samples.

Results

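The genes that make, destroy and read cyclic AMP (cAMP) were described in alphaTC6, a cultured line of mouse pancreatic alpha cells, after knockdown of the transcription factor Klf4. They were chosen by symbol alone. The patterns took every numbered Adcy gene (adenylyl cyclases), every Pde gene named by a number and a letter (phosphodiesterases) and the 6 genes of the cAMP-dependent protein kinase, PKA. They matched 40 of the 55536 rows of the count table: 24 phosphodiesterase genes, 10 cyclase genes and 6 PKA genes. Of these, 22 had a mean of at least 1 CPM (a gene's counts relative to the scaled total of its library) over the 8 libraries, 7 were lower but abundant enough to be tested, and 11 were too low to be tested. The gene just inside the limit was Pde4a at 1.05 CPM, and the one just outside was Adcy2 at 0.947 CPM.

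Both groups were wild-type alphaTC6 cells reverse transfected with RNAiMax for 48 h, either with a scramble small interfering RNA (siRNA) as control or with a pool of siRNAs against Klf4. There were 4 libraries of poly(A) RNA in each group, called biological replicates in the design text. Batch 1 held scramble replicates 1 and 2 and Klf4 siRNA replicates 1, 2 and 4, and batch 2 held scramble replicates 3 and 4 and Klf4 siRNA replicate 3. What a batch was is not stated, and the extraction protocol speaks of isolated islets although each sample is labelled as the cell line. All libraries came from this 1 cultured line, so the p-values measure the spread between its transfections.

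Adenylyl cyclases in the plasma membrane turn ATP into cAMP when a Gs-coupled receptor is active, and phosphodiesterases break cAMP or cyclic GMP down. PKA is held inactive by a pair of regulatory subunits, which bind cAMP and then release the catalytic subunits. In alpha cells this pathway is known as a stimulus of glucagon secretion and of glucagon gene transcription.

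Klf4 fell from 41.8 ± 5.67 CPM in scramble libraries to 15.6 ± 4.26 CPM in Klf4 siRNA libraries (SD, n = 4 each), a log2 change of -1.33 with a standard error (SE) of 0.17 and an edgeR adjusted p of 0.0083. Library totals ran from 45954151 to 64185987 counts. Summed alpha cell markers reached 5873.89 to 14137.8 CPM, while the defining beta cell genes Ins1, Ins2, Pdx1 and Ucn3 had no count in any library and Sst, the delta cell hormone, had at most 2 counts. Gcg, the glucagon gene, ranged from 1065 to 8913 CPM between libraries, and the alpha marker Gc had at most 4 counts. Genes on the lists of other cell types were expressed too, among them Rbp4 (delta list) at 1200 to 1350 CPM, Nkx6-1 and G6pc2 (beta list) at 103 to 149 and 83.5 to 143 CPM, and Col1a2 (fibroblast list) at 11.8 to 21.7 CPM. Their part in the results was not tested. One library stood apart in a way its batch label does not give. Fos, an immediate early gene singled out after its values were seen, was at 129.7 CPM in Klf4 siRNA replicate 4, against 22.2 to 36.9 CPM in the other batch 1 libraries and 92.2 to 122 CPM in batch 2.

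Prkar2a, the type II alpha regulatory subunit of PKA, rose after Klf4 siRNA, while Adcy6, the most abundant cyclase, and Prkar2b, the type II beta subunit, fell. Neither catalytic subunit gene passed the test. Of the 22 genes, 3 passed the edgeR test (adjusted p under 0.05), 1 higher and 2 lower. That is 13.6% of them, beside 11.7% of all 16333 genes tested (4.88% higher and 6.81% lower), so the family as a whole was near the background. The median size of the log2 change was 0.075 over the 22 genes and 0.077 over all genes tested. The median SE was 0.035 for the 22 genes and 0.056 for all genes tested. Shares set beside those of all genes, here and below, thus compare genes of unlike precision. In bulk RNA, fewer expressing cells and less RNA per cell cannot be told apart.

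Prkar2a (ENSMUSG00000032601, chromosome 9, positions 108689314 to 108750436 of GRCm38, plus strand) was at 164, 162, 150.1 and 149 CPM with scramble siRNA and at 198, 189.8, 171 and 198 CPM after Klf4 siRNA, given here and below in the order of replicates 1 to 4. Every Klf4 siRNA library lay above every scramble library. The log2 change was 0.24 (SE 0.027, edgeR adjusted p = 4.93e-06), which is 118% of the control level. It was 0.26 within batch 1 and 0.19 within batch 2.

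Prkar2b (ENSMUSG00000002997, chromosome 12, positions 31958476 to 32061296, minus strand) was far scarcer, at 5.01, 5.59, 6.69 and 6.67 CPM with scramble siRNA and at 4.10, 4.07, 5.68 and 4.90 CPM after Klf4 siRNA. Within each batch the Klf4 siRNA libraries were the lower ones, but across batches the groups overlapped, because Klf4 siRNA replicate 3 of batch 2 lay above both scramble libraries of batch 1. The log2 change was -0.26 (SE 0.082, edgeR adjusted p = 0.042). This call was lost in 12 of 18 alternative analyses, among them DESeq2 (adjusted p = 0.058), limma-voom (adjusted p = 0.059) and the omission of any library other than Klf4 siRNA replicate 4 (adjusted p from 0.058 to 0.217).

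Because these close relatives moved in opposite directions, the 250 bases before their RefSeq start sites (GRCm38.p6) are shown, each 5′ to 3′ on the gene's own strand. Capitals mark matches, on either strand, to 2 words bound by KLF factors (CACCC and CCNCNCCC) or to TGACG, the core of the cAMP response element.

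Prkar2a (chr9:108691893-108692142, plus strand): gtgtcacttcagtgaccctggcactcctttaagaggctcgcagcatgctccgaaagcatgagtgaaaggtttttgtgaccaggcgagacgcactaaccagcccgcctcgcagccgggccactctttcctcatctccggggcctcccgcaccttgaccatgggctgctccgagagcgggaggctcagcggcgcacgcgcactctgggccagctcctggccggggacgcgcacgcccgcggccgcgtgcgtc

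Prkar2b (chr12:32061278-32061527, minus strand): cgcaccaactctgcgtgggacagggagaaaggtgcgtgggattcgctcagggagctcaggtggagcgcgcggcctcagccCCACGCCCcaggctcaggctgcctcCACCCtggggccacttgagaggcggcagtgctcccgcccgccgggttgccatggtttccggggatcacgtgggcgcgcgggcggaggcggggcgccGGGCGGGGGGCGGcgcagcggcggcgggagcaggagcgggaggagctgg

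The Prkar2a stretch lies inside the gene as GENCODE annotates it, downstream of its annotated start at position 108689314, whereas that of Prkar2b sits at the annotated start. The Prkar2a stretch, with 66.8% G or C, held no match to these words, to the full element TGACGTCA or to the GC box GGGCGG. The Prkar2b stretch, with 75.6% G or C, held 1 match to CACCC, 3 to CCNCNCCC and 4 to GGGCGG, and none to TGACG. Among 32851 promoter stretches of the same length, 52.0% held CACCC, 45.9% held CCNCNCCC, 32.7% held GGGCGG, 17.8% held TGACG and 1.55% held TGACGTCA. Matches to GGGCGG and CCNCNCCC can overlap. The words are a description of these letters and no binding was measured.

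Prkar1b, the type I beta regulatory subunit, was at 12.6, 13.3, 13.5 and 13.3 CPM with scramble siRNA and at 14.3, 15.4, 14.2 and 13.7 CPM after Klf4 siRNA. The groups did not overlap, yet the log2 change of 0.13 (SE 0.056) did not pass the test (edgeR adjusted p = 0.149). Such groups without overlap were found for 10.5% of all genes tested and for 3 of the 22 genes (Prkar2a, Prkar1b and Pde3b), each higher after Klf4 siRNA.

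Prkaca, the main catalytic subunit gene, was at 265, 269, 265 and 272 CPM with scramble siRNA and at 263, 275, 263 and 279 CPM after Klf4 siRNA. Its log2 change was 0.0069 (SE 0.029, edgeR adjusted p = 0.926). Prkacb was at 139.7, 147, 151 and 151 CPM and at 148, 149, 153 and 154 CPM, with a log2 change of 0.049 (SE 0.028, edgeR adjusted p = 0.308).

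**Figure D1:**
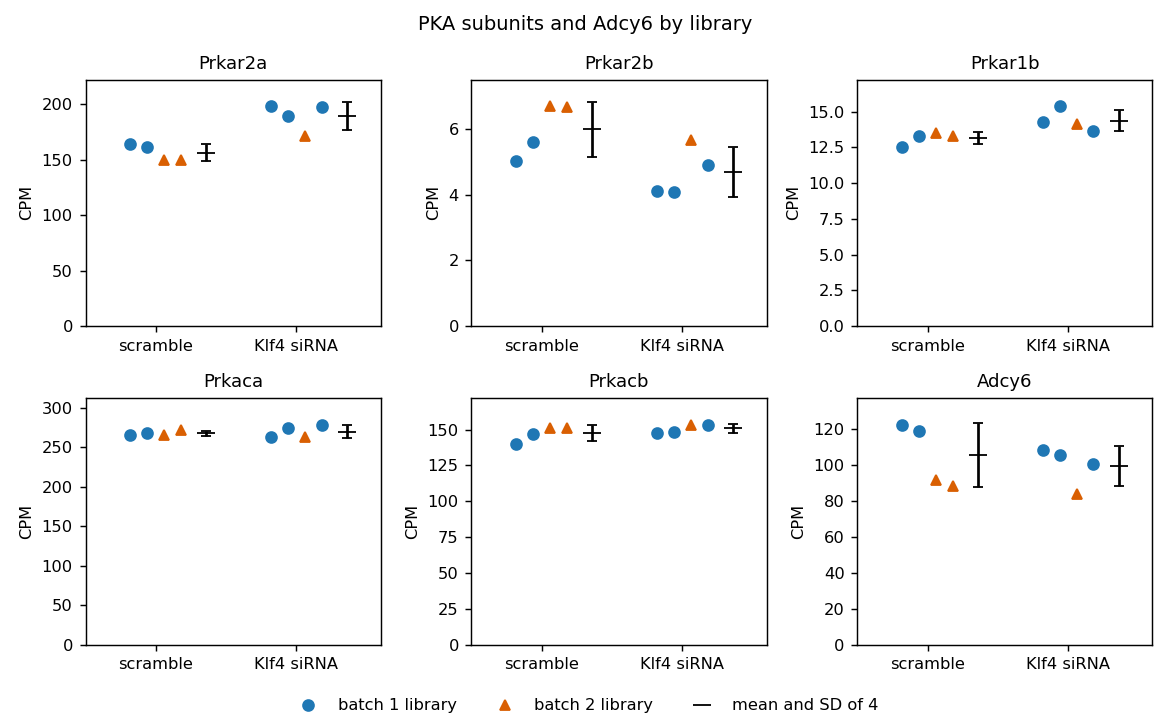
Level in CPM (vertical axis, from 0) of 5 PKA subunit genes and Adcy6 in each library, with circles for batch 1, triangles for batch 2 and bars for the mean and SD of 4 libraries. All 4 Klf4 siRNA libraries lie above all scramble libraries for Prkar2a (171 to 198 against 149 to 164 CPM), while those of Prkaca, Prkacb, Prkar2b and Adcy6 overlap.

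Levels of different genes were compared per kilobase of exon (CPM per kb). Prkaca stood at 108 CPM per kb, Prkar2a at 27.1, Prkacb at 17.0, Prkar1b at 3.62 and Prkar2b at 1.46. Prkar2a thus made up 84.1% of the regulatory subunit RNA, Prkar1b 11.3% and Prkar2b 4.64%, and Prkaca made up 86.4% of the catalytic subunit RNA. The mean share of Prkar2b was 5.56% in scramble libraries and 3.72% in Klf4 siRNA libraries, not adjusted for the unequal batches of the groups. Across batches the groups overlapped, with 4.51% in scramble replicate 1 and 4.84% in Klf4 siRNA replicate 3 of batch 2.

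Summed per kb, regulatory subunit RNA was 29.6 ± 0.910 CPM per kb in scramble libraries and 34.7 ± 1.80 in Klf4 siRNA libraries, while catalytic subunit RNA was 124 ± 1.70 and 126 ± 3.39 (SD, n = 4 each). The ratio of catalytic to regulatory RNA was 4.03, 4.11, 4.28 and 4.40 with scramble siRNA and 3.40, 3.65, 3.84 and 3.61 after Klf4 siRNA. All 4 Klf4 siRNA libraries lay below the lowest scramble library. The ratio of Prkar2a to Prkar2b was 18.8, 16.6, 12.8 and 12.8 in scramble libraries and 27.7, 26.7, 17.3 and 23.1 in Klf4 siRNA libraries, which overlap across batches but not within one. These ratios were formed after the genes' own changes were known and are given without a test.

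Prkar1a, the type I alpha regulatory subunit and in most tissues a widely expressed one, had 0 counts in all 8 libraries. A count of 0 allows a level of up to 0.0468 to 0.0637 CPM, depending on the library, taking 3 counts as the limit and counting error only. That limit holds only if reads of the gene could reach the table, which was not tested. The gene (ENSMUSG00000020612, chromosome 11, positions 109649405 to 109669656, plus strand) overlaps no other annotated gene. It sat in an unbroken run of 28 annotated genes, 17 of them protein-coding, over 1.73 Mb (positions 109346839 to 111076821), each with 0 counts in every library. The run also held Gna13, a G protein alpha subunit, Wipi1, an autophagy protein, and Map2k6, a kinase of the p38 pathway. It was bounded by Rgs9 (6 to 184 counts a library) and the pseudogene Gm11675 (8 to 17 counts). Farther out, Prkca, 1.72 Mb upstream, had 1290 to 1660 counts and Slc39a11, 3.60 Mb downstream, had 1741 to 2704. Elsewhere in the genome 16 runs of genes at 0 held more protein-coding genes, 8 of them with olfactory or vomeronasal receptor genes. On chromosome 11, 16.8% of 1639 protein-coding genes were at 0, beside 21.2% of all protein-coding genes. What lies behind the empty stretch was not tested. The regulatory totals, shares and ratios above therefore hold no Prkar1a counts, and would differ if its reads were missing from the table.

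**Figure D2:**
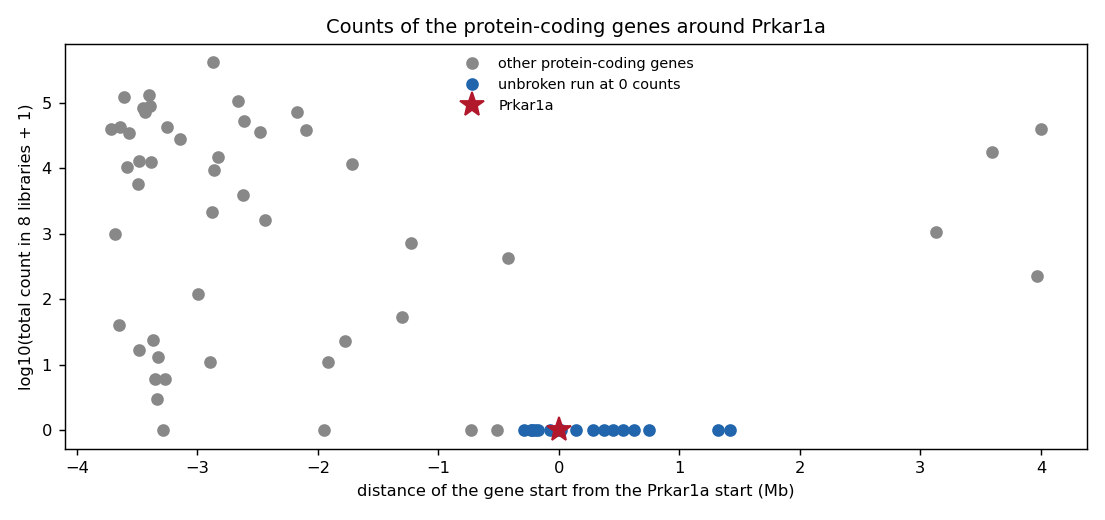
Total count over the 8 libraries, as log10 of the count plus 1 (vertical axis), of protein-coding genes by the distance of their start from that of Prkar1a in Mb (horizontal axis). Prkar1a (star) and the 17 protein-coding genes of its run, itself included, all lie at 0, between Rgs9 on one side and genes beyond 3 Mb on the other.

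Among the cyclases, Adcy6, which calcium inhibits, was the dominant gene and fell after Klf4 siRNA. It made up 86.6% of cyclase RNA per kb, between 80.6% and 91.0% in single libraries, followed by Adcy9 with 9.85%, Adcy3 with 1.53% and Adcy2 with 1.35%. Adcy8, which calcium stimulates through calmodulin, and Adcy4 had no count in any library. Adcy1, Adcy2, Adcy7 and Adcy10 were tested at under 1 CPM without a call for treatment, and Adcy5 was too low to test.

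Adcy6 (ENSMUSG00000022994, chromosome 15, positions 98589973 to 98610076, minus strand) was at 122, 119, 91.7 and 88.5 CPM with scramble siRNA and at 109, 106, 83.6 and 101 CPM after Klf4 siRNA. In each batch every Klf4 siRNA library was below every scramble library, but batch 2 was so much lower that the groups overlapped. The log2 change was -0.17 (SE 0.032, edgeR adjusted p = 0.0014), or -0.20 within batch 1 and -0.11 within batch 2. Without a batch term the value was -0.082 and the call was lost (adjusted p = 0.826). An antisense annotation, Gm29331, covers 8.92% of its exon bases, with 3 to 10 counts a library.

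The other cyclases did not pass the test for treatment. Adcy9, which forskolin stimulates only weakly, had a log2 change of 0.14 (SE 0.063, edgeR adjusted p = 0.177), and Adcy3, a cyclase of primary cilia, one of 0.13 (SE 0.129, adjusted p = 0.595). Adcy3 shares 22.1% of its exon bases with Cenpo on the opposite strand (490 to 663 counts), and since the use of strand in counting was not given, its reads cannot be told from those of Cenpo there. Summed cyclase RNA was 17.9 ± 2.03 CPM per kb in scramble and 16.9 ± 1.15 in Klf4 siRNA libraries (SD, n = 4 each), which overlap.

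**Figure D3:**
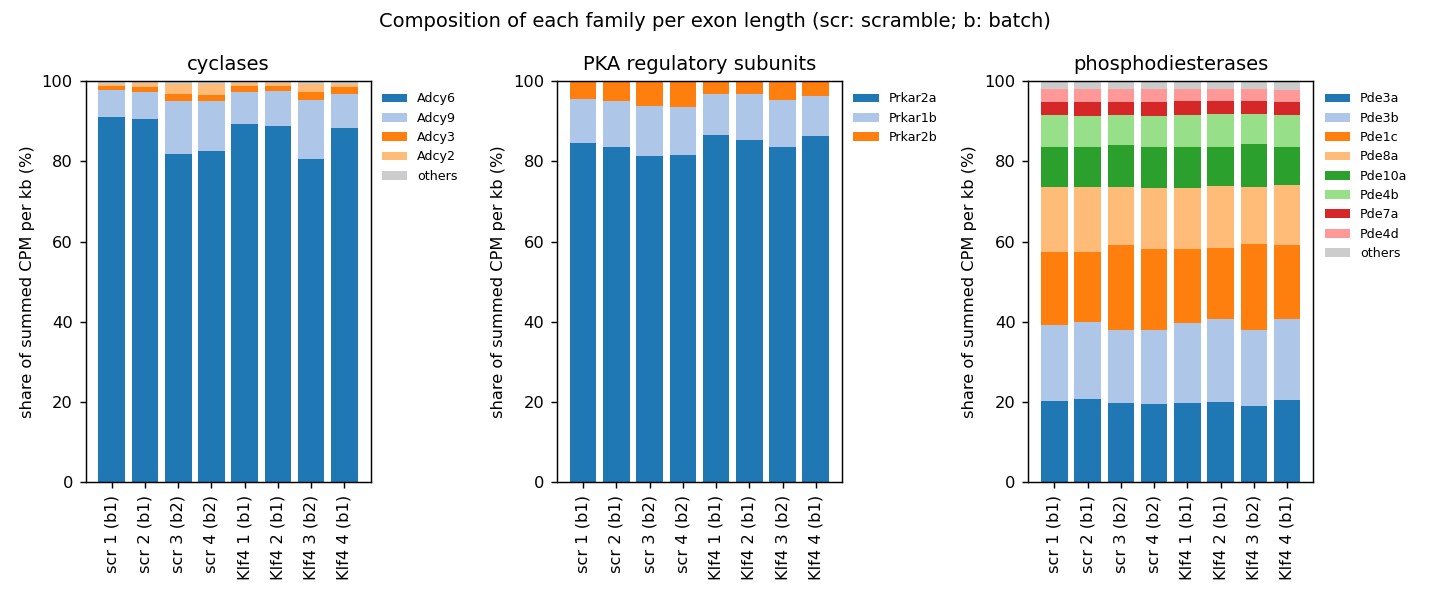
Share of each gene in the summed CPM per kb of its family (vertical axis, percent) in each library, labelled by group, replicate and batch. Adcy6 takes 80.6% to 91.0% of cyclase RNA, Prkar2a most of the regulatory subunit RNA, and Pde3a, Pde3b and Pde1c have the 3 largest mean shares of phosphodiesterase RNA.

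No phosphodiesterase gene passed the test after Klf4 siRNA: 0 of 14 at an edgeR adjusted p under 0.05, beside 11.7% of all genes tested, with 3 at an unadjusted p under 0.05, 4 with a positive and 10 with a negative log2 change. Of all 16333 genes tested, 3908 had an unadjusted p under 0.05, and 8172 were positive and 8161 negative. DESeq2 and limma-voom called none of them, while a fit with a replicate block beside the batch term called 4 lower: Pde3a (adjusted p = 0.0059), Pde8a (0.013), Pde7a (0.019) and Pde4d (0.033). That fit also called more of all genes, 3120 (1674 of them lower) in place of 1909. By class, and per kb, the Pde3 pair, which cyclic GMP inhibits, made up 39.3% of phosphodiesterase RNA. The Pde1 genes, activated by calcium and calmodulin, made up 19.5%, Pde8 15.3%, Pde4 11.1%, Pde10 10.1% and Pde7 3.80%. The cyclic GMP-specific genes of the Pde5, Pde6 and Pde9 classes together held 0.895%, and Pde2 with Pde11 held 0.0027%. Pde6d, Pde6g and Pde6h were left out of these shares because their products are not catalytic.

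The 5 most abundant phosphodiesterase genes in CPM were Pde1c at 584, Pde3a at 387, Pde3b at 268, Pde10a at 197 and Pde4b at 127. Their log2 changes were 0.024, -0.039, 0.059, -0.035 and 0.027 in that order. The lowest edgeR adjusted p among them was 0.184, that of Pde3b. Pde3b, the isoform known for lowering cAMP in response to insulin, was at 261, 267, 262 and 255 CPM with scramble siRNA and at 270.2, 276, 269 and 280.4 CPM after Klf4 siRNA. The groups did not overlap, but the fitted level after Klf4 siRNA was 104% of control.

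The cAMP-specific enzymes of middling abundance, Pde8a (94.1 CPM), Pde4d (57.8 CPM), Pde7a (38.7 CPM) and Pde7b (9.70 CPM), had log2 changes from -0.081 to -0.055. Their edgeR adjusted p ran from 0.103 for Pde8a upward. Pde6d, a chaperone of prenylated proteins rather than an enzyme, stood at 53.8 CPM with -0.038. The scarce genes had the widest errors: Pde4a -0.33 (SE 0.163), Pde5a -0.22 (SE 0.127), Pde1a 0.14 (SE 0.099) and Pde6c -0.060 (SE 0.097), none past the test. Summed phosphodiesterase RNA was 153 ± 4.00 CPM per kb in scramble and 151 ± 4.16 in Klf4 siRNA libraries (SD, n = 4 each).

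Pde1b, Pde6g and Pde8b were tested at under 1 CPM without a call. Pde2a had at most 1 count in any library, and 64.3% of its exon bases are shared with Gm45837 on the same strand, which also had at most 1. How reads common to both were counted is not given. Pde4c, Pde6a, Pde6b, Pde6h, Pde9a and Pde11a were too low to be tested.

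**Figure D4:**
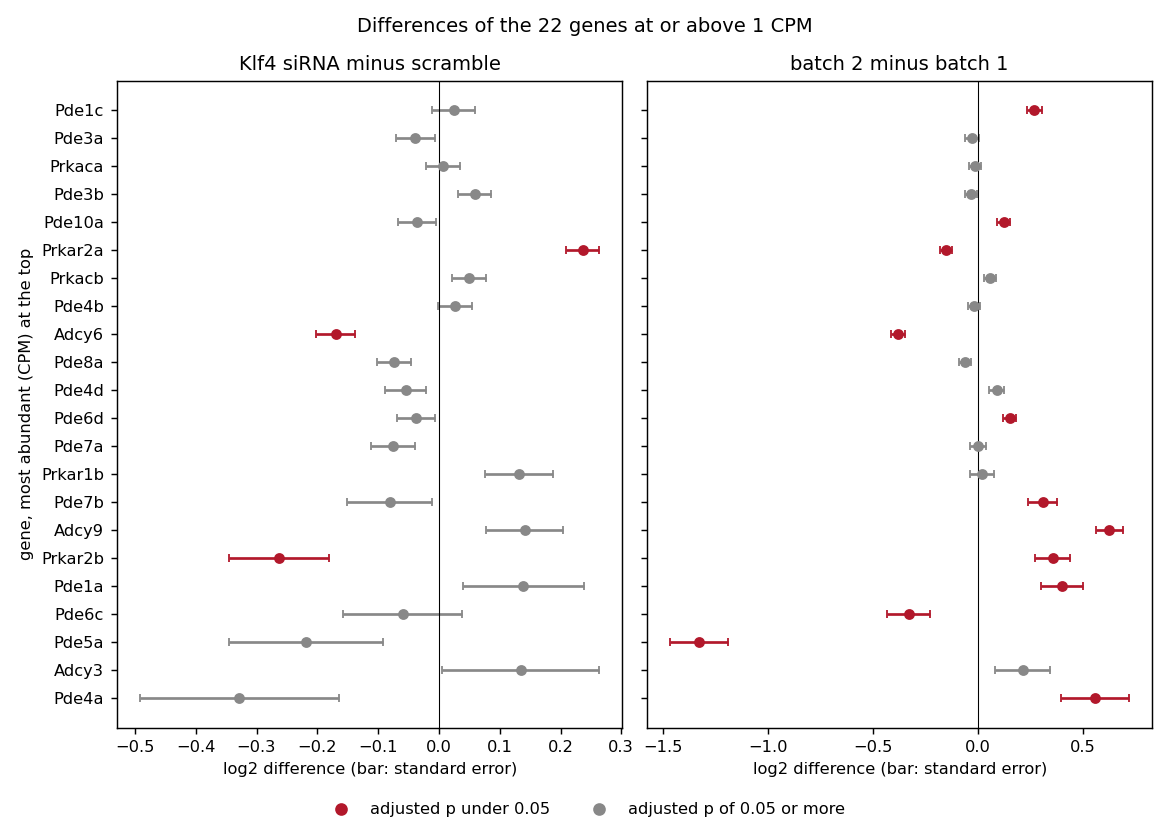
Log2 difference with its standard error (horizontal axes) of the 22 genes, ordered by CPM, for Klf4 siRNA minus scramble (left) and batch 2 minus batch 1 (right), which have different scales. Red marks an adjusted p under 0.05: 3 genes for treatment and 12 for batch, the largest batch difference among the 22 being the -1.33 of Pde5a.

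The batches differed in more of these genes than the treatments did, and by more. Between batches 12 of the 22 genes passed the edgeR test, 8 higher in batch 2 and 4 lower, which is 54.5% beside 32.7% of all genes tested (16.8% higher and 15.9% lower). Their median size of batch difference was 0.150 on the log2 scale, beside 0.118 over all genes. Pde5a, which breaks down cyclic GMP only, had the largest difference of the 22, at 3.37, 3.76, 1.62 and 1.49 CPM with scramble siRNA and 2.60, 3.77, 1.08 and 3.36 CPM after Klf4 siRNA. The 3 batch 2 libraries were the 3 lowest, with a log2 difference of -1.33 (SE 0.139, edgeR adjusted p = 2.29e-07).

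Adcy9 ran the other way from Adcy6. It was at 6.91, 6.78, 11.3 and 10.1 CPM with scramble siRNA and at 7.47, 7.85, 11.6 and 7.58 CPM after Klf4 siRNA, a batch difference of 0.63 (SE 0.064, edgeR adjusted p = 1.57e-07). Adcy6 differed by -0.38 (SE 0.034, adjusted p = 2.09e-08). Every batch 2 library was above every batch 1 library for Adcy9 and below every one for Adcy6. Of the 7 genes tested below 1 CPM, 1 also differed between batches: Adcy2, at 0.501 and 0.701 CPM in the batch 1 scramble libraries and 1.83 and 1.69 CPM in those of batch 2. Its log2 batch difference of 1.52 (SE 0.164, adjusted p = 3.33e-07) was larger than that of Pde5a.

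Pde1a was at 3.33, 3.04, 4.68 and 4.54 CPM with scramble siRNA and at 3.82, 3.34, 4.48 and 4.32 CPM after Klf4 siRNA, with a batch difference of 0.40 (SE 0.101, edgeR adjusted p = 0.0042). Pde4a, a cAMP-specific enzyme, was at 0.895, 1.13, 1.36 and 1.5 CPM and at 0.954, 0.657, 1.20 and 0.716 CPM, with a batch difference of 0.56 (SE 0.163, adjusted p = 0.012) that was lost in scramble libraries alone and on leaving out either scramble replicate 1 or Klf4 siRNA replicate 3 (adjusted p up to 0.0988). For both genes all batch 2 libraries lay above all batch 1 libraries.

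Prkar2b, given above, differed between batches by 0.36 (SE 0.083, adjusted p = 0.0023) and Prkar2a by -0.15 (SE 0.028, adjusted p = 0.00029). Pde1c, Pde7b, Pde6d and Pde10a were higher in batch 2, by 0.27, 0.31, 0.15 and 0.12, and Pde6c was lower, by 0.33. The call of Pde10a was lost with library totals as the scaling, without Klf4 siRNA replicate 3 and in scramble libraries alone (adjusted p up to 0.188), and that of Pde6c without scramble replicate 2 or 3 (adjusted p up to 0.0726). The share of Pde1 genes in phosphodiesterase RNA was 18.4% in batch 1 and 21.4% in batch 2. Klf4 siRNA replicate 4, which stood with batch 2 in Fos, lay with batch 1 in Adcy9, Pde5a and Pde4a, but in Pde1a, at 4.32 CPM, was nearer to batch 2 (4.48 to 4.68 CPM) than to the other batch 1 libraries (3.04 to 3.82 CPM).

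**Figure D5:**
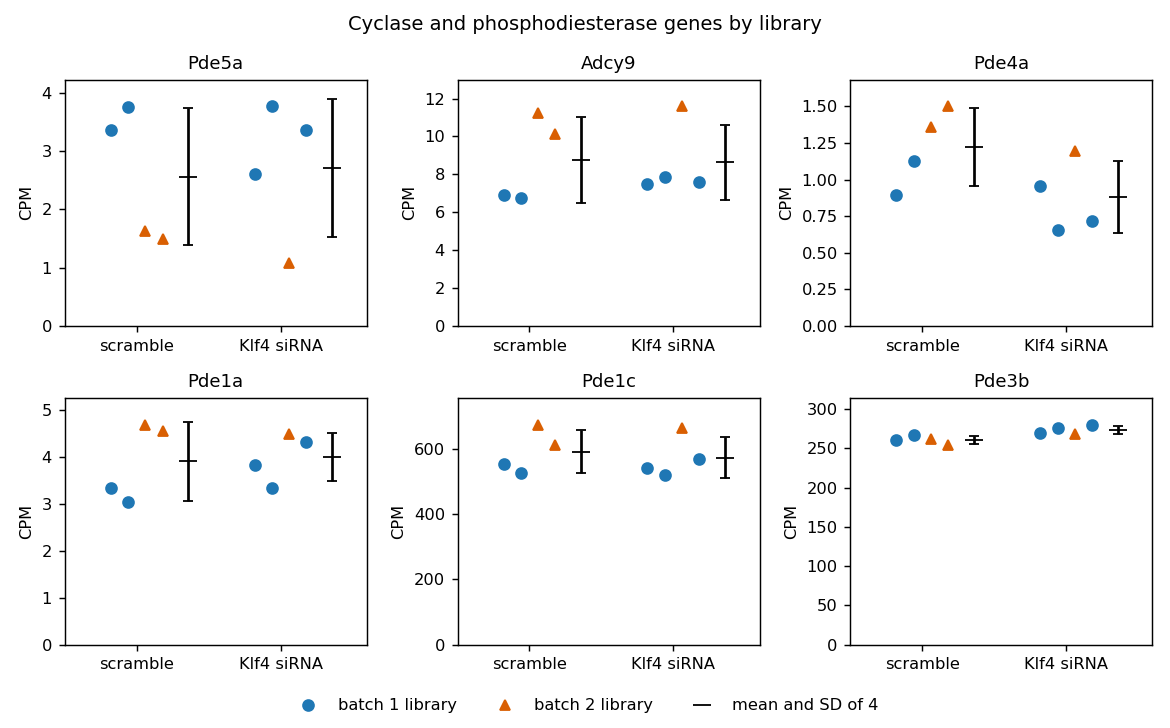
Level in CPM (vertical axis, from 0) of 1 cyclase and 5 phosphodiesterase genes in each library, with circles for batch 1, triangles for batch 2 and bars for the mean and SD of 4 libraries. Batch 2 libraries are the lowest for Pde5a (1.08 to 1.62 CPM) and the highest for Adcy9, Pde4a, Pde1a and Pde1c, while Pde3b differs little.

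The treatment changes were also compared between batches. No gene of the 22 passed a test of the batch by treatment interaction (edgeR, smallest adjusted p = 0.999), and 0 did at an unadjusted p under 0.05. Over all 16333 genes tested 0 passed (0%), with 540 at an unadjusted p under 0.05 and a smallest adjusted p of 0.712. With 1 Klf4 siRNA library in batch 2 this comparison is imprecise. The change had the same sign in both batches for 17 of the 22 genes, beside 10601 of all 16333 genes tested. In 9 of 22, beside 24.4% of all genes tested, the treatments did not overlap within either batch and differed in 1 direction: Prkar2a, Prkar1b, Prkacb, Pde3b and Adcy9 were higher, and Adcy6, Prkar2b, Pde7a and Pde8a were lower.

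Other genes of the pathway were taken from 9 lists by role, of which 73 genes could be tested. After Klf4 siRNA 1 was higher and 9 were lower, 10 of 73 beside 11.7% of all genes tested, with a median log2 change of 0.010. Of 14 tested PKA anchors, inhibitors and relatives 3 fell and none rose, beside 6.81% lower and 4.88% higher of all genes tested. The median log2 change of the 14 was -0.0095, and 6 of them had a positive value. Pkia, a peptide inhibitor of the catalytic subunit, was at 29.5, 29.9, 33.9 and 34.5 CPM with scramble siRNA and at 22.8, 23.2, 27.5 and 21.8 CPM after Klf4 siRNA. The groups did not overlap, and the log2 change was -0.36 (SE 0.040, edgeR adjusted p = 3.1e-06). Akap1, which anchors PKA at the outer mitochondrial membrane, fell from 92.7 ± 3.72 to 79.8 ± 4.12 CPM (SD, n = 4 each), with a log2 change of -0.23 (SE 0.035, adjusted p = 0.00012). Pkig, another inhibitor peptide, changed by -0.12 (SE 0.033, adjusted p = 0.022), a call lost in 7 of 18 alternatives.

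Upstream of the cyclases, none of 7 G protein genes passed the edgeR test, a list too short to set apart from the 11.7% of all genes tested. The same holds for the receptor lists. Gnas, which encodes the stimulatory alpha subunit, was at 5301 ± 468 CPM with scramble siRNA and 5226 ± 329 CPM after knockdown (SD, n = 4 each). With batch in the fit its log2 change was 0.030 (SE 0.031, edgeR adjusted p = 0.620), beside a batch difference of 0.19. Of 7 tested Gs-coupled receptors, Gpr119, a receptor for fatty acid amides, fell from 11.1 ± 0.216 to 8.27 ± 0.761 CPM, a log2 change of -0.43 (SE 0.068, edgeR adjusted p = 0.00024). The glucagon receptor gene Gcgr had at most 2 counts and the GLP-1 receptor gene Glp1r at most 1 count in any library. None of 4 tested Gi-coupled receptors passed.

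Of 6 other cAMP effectors tested, 1 rose and 1 fell, beside 4.88% higher and 6.81% lower of all genes tested. Rapgef4, the exchange factor Epac2, rose by 0.092 (SE 0.028, edgeR adjusted p = 0.039), a call lost in 11 of 18 alternatives. Hcn2, a channel gated by cyclic nucleotides, fell from 266 ± 9.81 to 235 ± 7.59 CPM (SD, n = 4 each), by 0.18 (SE 0.032, adjusted p = 0.00089). Among 9 tested CREB factors, coactivators and their kinases, only Crtc1, a coactivator, passed, beside 11.7% of all genes tested. It changed by -0.13 (SE 0.033, edgeR adjusted p = 0.010) and lost the call in 4 of 18 alternatives. Neither list is long enough to set its count apart from the share over all genes.

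Of 13 tested cAMP-responsive target genes 2 fell and none rose, beside 6.81% lower and 4.88% higher of all genes tested, and the median log2 change of the 13 was 0.077. Rgs2, a regulator of G protein signalling, changed by -0.20 (SE 0.064, edgeR adjusted p = 0.044), and Gem, a small GTPase, by -0.42 (SE 0.121, adjusted p = 0.029) beside a batch difference of 2.17. These calls were lost in 9 of 18 and 8 of 17 alternatives. Fos and Nr4a1 had changes of 0.58 (SE 0.715) and 0.30 (SE 0.443) that did not pass the test. In batch 1 only Klf4 siRNA replicate 4 was high, with Fos at 129.7 and Nr4a1 at 261 CPM, while Klf4 siRNA replicates 1 and 2 had 30.6 and 22.2 CPM of Fos and 89.0 and 94.3 CPM of Nr4a1, beside 36.9 and 25.5 CPM and 98.0 and 111 CPM in the scramble libraries. Among 8 tested partners of cyclases and phosphodiesterases, Calm3, 1 of the calmodulin genes, fell from 693 ± 23.1 to 597 ± 20.7 CPM (SD, n = 4 each), by 0.20 (SE 0.030, adjusted p = 9.9e-05). None of 5 tested genes of the cyclic GMP arm passed. Beside 11.7% of all genes tested, neither of these last counts stands apart.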

How the data were processed

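Poly(A) RNA was sequenced after preparation with the Tecan Universal Plus kit, per the labels. The deposited table holds whole-number counts per gene, which the authors did not normalize. FastQC, STAR, featureCounts, DESeq2 and the mm10 build are named in the submitters' processing notes, while the design text names edgeR and a correction for batch. The strand setting and the handling of reads shared by genes are not given in the sources used here. All 55536 identifiers matched GENCODE mouse release M21 (GRCm38), which gave positions and exon lengths. RefSeq gave promoters for 31 of the 40 genes.

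Genes kept by filterByExpr on the treatment groups (16333) were fitted in edgeR 4.0.16 (R 4.3.3) with batch and treatment on 8 libraries, TMM scaling and robust quasi-likelihood, leaving 5 residual degrees of freedom. P-values are two-sided, adjusted by Benjamini-Hochberg over all genes tested, with a threshold of 0.05. SE is the absolute log2 change divided by the square root of F. CPM uses TMM-scaled library sizes. Within-batch changes are on a log2 CPM scale (prior count 2). The test was checked on simulated counts. Alternatives changed the batch term, block, scaling, tool (DESeq2 1.42.0, limma-voom 3.58.1), filter, threshold and libraries.

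With totals of 45954151 to 64185987 counts, counting error is small for the abundant genes. It matters for the scarcer ones, not only near 1 CPM: Prkar2b had 202 to 429 counts a library and Pde5a 57 to 218. Within each treatment no pair of libraries agreed within sampling noise (smallest chi-square per degree of freedom 10.2). The genes and lists were chosen with earlier results of these data known. Named by rule were Klf4, all 22 genes, and up to 3 called genes of every other list, taken by adjusted p. Gnas, Gcgr, Glp1r, Fos, Nr4a1, the genes below 1 CPM, the cell type markers and the neighbours of Prkar1a were named outside it. By the rule, per-library values were given, among the 22, for called genes, PKA subunits and the 6 largest batch differences. Those of Pde3b, Adcy2, Fos and Nr4a1 were added after they were seen, and those of Pkia were also outside the rule. Marker lists covered alpha, beta, delta, PP, acinar, ductal, fibroblast, endothelial and immune cells. Summed over all libraries' range, the acinar list reached 5.81 to 7.31 CPM, ductal 1.32 to 6.48, fibroblast 11.8 to 21.9, immune 1.56 to 2.50, endothelial at most 0.437 and PP at most 0.183. The beta list reached 193 to 295 CPM and the delta list 1201 to 1351.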

Additional observations from a re-analysis of the deposited data

Results flagged for a closer look

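Of 44 groups of 4 libraries (22 genes in each treatment), 2 had 1 library far from the other 3, judged by the gap to its nearest neighbour as a share of the group's range against Dixon's critical value. Chance alone gives about 1 in 20 such groups, or 2.2 of 44. Pde3a was flagged in the Klf4 siRNA group, where replicate 4 was the highest of a range from 374 to 404 CPM and the gap took 0.905 of that range. Adcy9 was flagged in the same group, where replicate 3, the single Klf4 siRNA library of batch 2, was the highest of a range from 7.47 to 11.6 CPM and the gap took 0.908 of it. The batch 2 scramble libraries were likewise the higher ones for Adcy9, at 11.3 and 10.1 CPM.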

How the results depend on the processing

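Prkar2a passed the threshold in all 18 alternatives (log2 change 0.22 to 0.28, adjusted p at most 0.029). Adcy6 passed in 16 and Prkar2b in 6. Gpr119, Pkia, Akap1, Hcn2 and Calm3 passed in all 18. The 3 called genes became 1 with no batch term and 8 with a replicate block together with the batch term, which added Prkar1b, Pde3a, Pde4d, Pde7a and Pde8a. They were 2 with the replicate block replacing the batch term and 2 to 3 when a library was left out. The 10 other pathway genes became 5 with no batch term, 18 with the replicate block and batch, 5 at a threshold of 0.01, and 5 to 10 when a library was left out (5 without scramble replicate 1 or 2). The 1909 called genes of the whole table became 409 with no batch term, 1232 in batch 1 alone, 1220 with the replicate block in place of batch, 3120 with both, 997 at 0.01, and 934 to 2021 when a library was left out. They were 934 without scramble replicate 1, 1012 without scramble replicate 2 and 1232 without Klf4 siRNA replicate 3. Between libraries of the same replicate number, deviations from group means correlated at 0.49, 0.41, 0.72 and -0.34 for numbers 1 to 4. Once batch was removed the values were -0.0014, -0.047, -0.31 and 0.11. Removing batch and treatment from so few libraries partly fixes these last values. They cannot settle whether replicate numbers pair the libraries. The 12 genes differing between batches were 9 to 13 in all alternatives run. The interaction count stayed at 0. It was not estimable without Klf4 siRNA replicate 3.

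Signs reversed only for values that passed no threshold. For treatment with no batch term these were Pde5a (0.085), Pde1c (-0.043), Adcy9 (-0.025) and Pde6c (0.015). With the replicate block in place of batch they were 0.063, -0.042, -0.015 and 0.022 in that order, and Pde1c was -0.022 with block and batch. Prkaca ranged from -0.0059 to 0.027 when a library was left out (-0.0043 without scramble replicate 1). The batch difference of Pde7a was -0.0020 with DESeq2 size factors, -0.036 with library totals, -0.0019 with DESeq2, -0.0014 with no filter, -0.013 in scramble libraries alone and -0.017 to 0.022 when a library was left out. That of Prkar1b was -0.021 with library totals and -0.013 to 0.054 when a library was left out. In scramble libraries alone it was 0.011 for Pde4b and 0.0098 for Prkaca, and when a library was left out it ran from -0.038 to 0.010 and from -0.031 to 0.0093. Where a value changed, the cause was not tested. Depth limits the scarcer genes: the standard error was 0.163 for Pde4a, 0.129 for Adcy3 and 0.082 for Prkar2b, against 0.035 at the median of the 22 genes.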
